A study of Drosophila melanogaster with 18 samples.

Results

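The genes described are 10 receptors for dopamine, serotonin and octopamine in the fly brain. They were chosen by FlyBase symbol, with earlier results of these data known but by no rule on measured values, and are 10 of the 13439 genes in the deposited table. All 10 passed the filter on low values, an average of 5 or more normalized reads over the libraries. They are the dopamine receptors Dop1R1, Dop1R2, Dop2R and DopEcR, the serotonin receptors 5-HT1A, 5-HT1B, 5-HT2A, 5-HT2B and 5-HT7, and the octopamine receptor Oamb.

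The study sequenced brain RNA from virgin females and virgin males of the Oregon wild-type strain at 3, 7 and 14 days after eclosion, to ask how sex and age act on expression in the brain. Each library came from a pool of 100 brains, so a value is an average over many flies, and no group carried a mutation or received a treatment. Every male group and the 3-day female group had 3 libraries, while the older female groups, of 7 and 14 days, had 2 each. Libraries are called by their replicate number in the sample labels, and 2 further female samples, replicate 3 at 7 days and replicate 1 at 14 days, were not analysed here.

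Dopamine, serotonin and octopamine are small amines that neurons release to change how other neurons respond, and nearly all of their receptors in the fly pass the signal on through G proteins. Receptors coupled to Gs raise the second messenger cAMP, those coupled to Gi or Go lower it, and those coupled to Gq release calcium inside the cell. In the fly brain these amines are best known for their part in learning in the mushroom body, sleep, arousal, feeding, aggression and courtship. Octopamine takes in insects the place that noradrenaline holds in vertebrates.

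The values are normalized reads, that is, reads of a gene divided by a factor for the library's depth. Totals ran from 2924715 to 8664494 reads per library with a median of 6094046, and the members had between 99 and 7711 reads each per library. All 8 neuron markers, such as elav and nSyb, were above 0 in every library, and their summed level ran from 17967 to 126211. Photoreceptor markers were also present in every library, at a summed level of 4234 to 80211, and the yolk protein and other fat body markers summed to 18342 to 156569 in females and 2034 to 3326 in males. In bulk RNA, fewer cells of a type and less RNA per cell cannot be told apart. The median of 57 gustatory receptor genes, transcripts that are scarce in the brain, was taken as a measure of background. Its group means were 1.4, 10.7 and 14.9 in females and 8.9, 7.57 and 25.6 in males at the 3 ages in turn. The paper reports that genes rising with age were enriched for detection of chemical stimulus. Whether this median measures background or such a change in expression was not tested. The median was 43.6 normalized reads in replicate 1 of the 14-day males against 11.8 and 21.3 in the other replicates. In replicate 2 of the 7-day females it was 15.9 normalized reads against 5.41 in replicate 1. These are called the 2 libraries of high background, though the second, at 15.9, was below the 16.1 of a 14-day female library and the 21.3 of a 14-day male library. Replicate 1 of the 14-day males also had the lowest neuron marker sum. Values without both are given for part of the results that this changes. In comparisons that hold neither 7-day females nor 14-day males the LFC cannot change in that fit. A new call there comes from the spread and the adjustment alone.

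The 10 genes lie on 4 chromosome arms of release 6 of the genome. Dop1R1 (CG9652, 3R:14165379-14214810, minus strand), Dop1R2 (CG18741, 3R:29630304-29659984, minus), 5-HT2A (CG1056, 3R:4612870-4633304, plus), 5-HT2B (CG42796, 3R:8578205-8629996, plus), 5-HT7 (CG12073, 3R:30968236-31016875, minus) and Oamb (CG3856, 3R:20689018-20714577, minus) lie on 3R. 5-HT1A (CG16720, 2R:19067155-19121958, plus) and 5-HT1B (CG15113, 2R:19022325-19032642, minus) are close to each other on 2R. DopEcR (CG18314, 3L:4367649-4380387, minus) is on 3L, and Dop2R (CG33517, X:20004680-20062706, minus) is the only member on the X chromosome. No exon of a member overlapped an exon of another gene. Small genes sit inside introns of some members, among them Ir56a in 5-HT1A with a mean of 70.6 normalized reads and CG9570 in Dop2R with a mean of 22.1.

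Per length, DopEcR stood far above the other receptors. DopEcR is a membrane receptor for both dopamine and the steroid ecdysone, and its level was 882 ± 239 normalized reads per kb of exon (SD, n = 16), higher than 96.9% of the other tested genes. 5-HT1A, a receptor known in flies for lowering cAMP and for promoting sleep, followed at 192 ± 39.4 normalized reads per kb. DopEcR was above 5-HT1A in 16 of 16 libraries, and 5-HT1A above the next gene in 15 of 16.

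A middle group of receptors lay close together on the same scale. Dop2R had 140.2 ± 34.4, Dop1R2 129 ± 30, Oamb 127 ± 33.2 and 5-HT1B 123 ± 22.6 normalized reads per kb (SD, n = 16 each). Neighbours in that order did not separate: Dop2R was above Dop1R2 in 10 of 16 libraries, Dop1R2 above Oamb in 10 and Oamb above 5-HT1B in 9. Dop1R1 had 108 ± 27.7 normalized reads per kb and was below 5-HT1B in 13 of 16 libraries.

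The lowest 3 were serotonin receptors. 5-HT7 had 82.8 ± 21, 5-HT2B 59.9 ± 21.4 and 5-HT2A 37.2 ± 10.2 normalized reads per kb (SD, n = 16 each). 5-HT7 was above 5-HT2B in 15 of 16 libraries and 5-HT2B above 5-HT2A in 14 of 16. 5-HT2A was still higher than 39.4% of the tested genes.

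The place of Dop1R1 in this order depends on the length used. Its exons span 14565 bases, of which 1680 are coding, and per kb of coding sequence it was second of the 10, at 938 normalized reads per kb. DopEcR stayed first at 3919 and 5-HT1A followed Dop1R1 at 379 on that scale, and the lowest 3 were 5-HT7, 5-HT2B and 5-HT2A on either scale. As a share of the summed per-kb level of the 10 receptors on the exon scale, DopEcR made up 46.2% in the median library, between 25.6% and 59.1%.

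**Figure D1:**
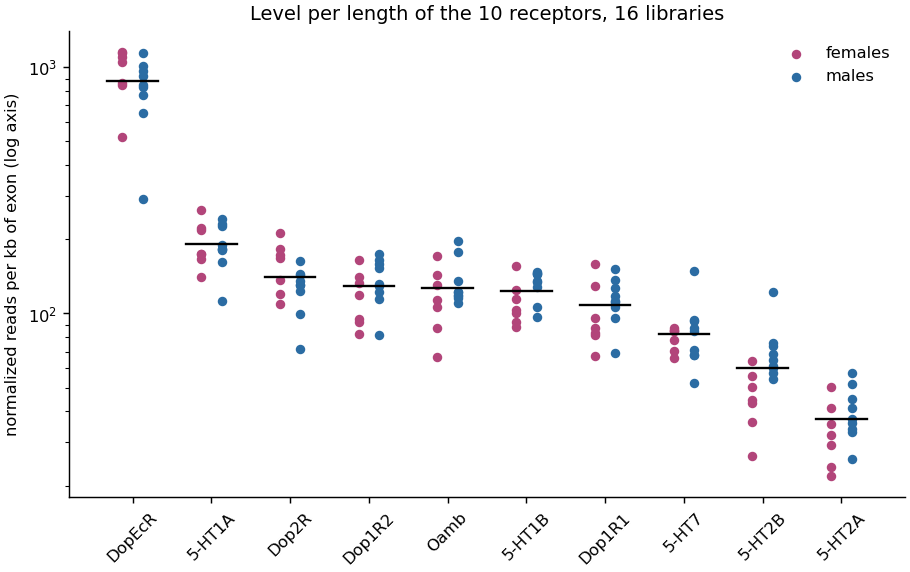
Normalized reads per kb of exon (log axis) of each receptor in the 16 libraries, with females left and males right in each column, and the mean as a line. DopEcR lies above the other receptors in every library, with a mean of 882, and 5-HT2A is lowest, with a mean of 37.2.

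Values by group follow, by receptor class. A gene is called changed at an adjusted p under 0.1 in limma's moderated test on log2(normalized reads + 1), with p-values adjusted over all 12448 genes tested. Each log2(fold-change), or LFC, is on that scale with its SE. Shares of all genes are from limma, and counts by DESeq2 or edgeR have no such share beside them.

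Dop1R1 encodes the D1-like receptor that raises cAMP and is required in the mushroom body for associative learning. Its normalized reads were 1190, 1212 and 2312 in females at 3 days, 1275 and 1885 at 7 days, and 1391 and 979 at 14 days. In males they were 2212, 1720 and 1989 at 3 days, 1631, 1400 and 1546 at 7 days, and 1002, 1619 and 1845 at 14 days. The group ranges overlapped between the sexes at every age. The largest LFC of Dop1R1 between 2 groups was -0.45 ± 0.29 for 14- over 3-day males (limma adjusted p = 0.28), with a 95% interval of -1.06 to 0.16.

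Dop1R2, also called DAMB, is the second D1-like receptor, and in the fly it is known for its role in forgetting. It had 490.1, 428 and 853 normalized reads in females at 3 days, 615 and 688 at 7 days, and 728 and 478 at 14 days. In males the values were 900.3, 789 and 666 at 3 days, 851, 630.4 and 591 at 7 days, and 424, 821 and 683 at 14 days. Replicate 3 of the 3-day females was about as high as the 3-day males while the other 2 replicates were below all of them. The sex difference at 3 days was an LFC of -0.47 ± 0.29 (limma adjusted p = 0.34), and without that replicate it was -0.77 ± 0.28 and called (limma adjusted p = 0.087).

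Dop2R is the D2-like receptor, which lowers cAMP and acts in part as an autoreceptor on dopamine neurons. It had 714, 893 and 1392 normalized reads in females at 3 days, 1101 and 1124 at 7 days, and 1192 and 783 at 14 days. In males it had 889, 647 and 932 at 3 days, 1065, 850.4 and 804 at 7 days, and 468, 948 and 851 at 14 days. The 7-day females were the only age at which both female values lay above every male value. Dop2R had the highest LFC of females over males of the 10 receptors at each age, at 0.24 ± 0.29, 0.31 ± 0.32 and 0.42 ± 0.32, and none of these passed the test (limma adjusted p = 0.65, 0.83 and 0.71). Averaged over the 3 ages the LFC was 0.32 ± 0.18 (limma adjusted p = 0.34), with a 95% interval of -0.06 to 0.70.

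The ratio of Dop2R to Dop1R1 within a library does not depend on the scaling between libraries. In females the ratio of normalized reads was 0.60, 0.74 and 0.60 at 3 days, 0.86 and 0.60 at 7 days, and 0.86 and 0.80 at 14 days. In males it was 0.40, 0.38 and 0.47 at 3 days, 0.65, 0.61 and 0.52 at 7 days, and 0.47, 0.59 and 0.46 at 14 days. Female libraries were above male ones without overlap at 3 and 14 days, and the ranges overlapped at 7 days. This ratio was chosen after its values were seen, among 5 ratios computed, and was not tested.

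DopEcR had its lowest means at 14 days in both sexes, but no comparison passed the threshold in limma. It had 4932, 4495 and 4709 normalized reads in females at 3 days, 4898 and 3639 at 7 days, and 3722 and 2240 at 14 days. In males it had 3626, 4325 and 4924 at 3 days, 4137, 3967 and 3582 at 7 days, and 1254, 2804 and 3317 at 14 days. The 14-day values were below all 3-day values in each sex, and replicate 1 of the 14-day males was the lowest library of all. Between 14- and 3-day males the LFC was -0.91 ± 0.33 (limma adjusted p = 0.11), and DESeq2 on the recovered reads called it at -0.80 ± 0.30 (adjusted p = 0.054). Between 14- and 7-day males it was -0.78 ± 0.33 (limma adjusted p = 0.12), and -0.35 without replicate 1 of the 14-day males (limma adjusted p = 0.53). Between 14- and 3-day females it was -0.71 ± 0.37 (limma adjusted p = 0.21). Without both libraries of high background the male LFC from 3 to 14 days shrank to -0.48. Neither of these libraries is of 3- or 14-day females, so the female LFC of -0.71 could not change in that fit. The sum of the 8 neuron markers was 72851 to 80328 in 3-day males and 17967 to 52246 in 14-day males. In females it was 91904 to 120819 at 3 days and 35991 to 69548 at 14 days. It was thus lower at 14 days as DopEcR was. From 3 to 14 days glia markers also had median LFCs below 0, at -1.91 in females and -0.90 in males. So did photoreceptor (-2.34 and -1.29), muscle (-1.03 and -1.33) and mushroom body markers (-0.61 and -0.52). Fat body markers went the other way (2.07 and 0.36). The part of these cell types in the result was not tested.

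5-HT1A and 5-HT1B are the serotonin receptors that act against cAMP. 5-HT1A had 875, 875 and 1319 normalized reads in females at 3 days, 1115 and 1101 at 7 days, and 833 and 708 at 14 days. In males it had 1213, 1137 and 1163 at 3 days, 948, 917 and 917 at 7 days, and 566, 816 and 907 at 14 days. The male ages did not overlap: every 3-day value was above every 7-day value, and every 7-day value above every 14-day value. 5-HT1A was called lower in 14- than in 3-day males, with an LFC of -0.65 ± 0.22 (limma adjusted p = 0.094), and the steps in between were -0.34 ± 0.22 for 7 over 3 days and -0.31 ± 0.22 for 14 over 7 days (limma adjusted p = 1 and 0.3). DESeq2 called it too (adjusted p = 0.042), and edgeR did not (adjusted p = 0.12). Leaving out replicate 1 of the 14-day males took the LFC to -0.44 (limma adjusted p = 0.46), and the call was lost in 10 of 16 fits that left out 1 library. In females the LFC for 14 over 3 days was -0.39 ± 0.24 (limma adjusted p = 0.29). The difference between the sexes in the change from 3 to 14 days was not tested.

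5-HT1B, which in the fly takes part in setting the light response of the circadian clock, was called in no comparison. Its normalized reads were 414, 405 and 629 in females at 3 days, 371 and 502 at 7 days, and 459 and 355 at 14 days. In males they were 542, 595 and 589, then 514, 427 and 584, then 391, 547 and 582 at the 3 ages in turn. The male and female ranges overlapped at each age. Averaged over the ages, the LFC of females over males was -0.27 ± 0.14 (limma adjusted p = 0.32), and without both libraries of high background it was -0.40 ± 0.14 (limma adjusted p = 0.087).

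5-HT2A and 5-HT2B are related receptors of the class that works through Gq in mammals, and 5-HT2A had its highest mean in each sex at 3 days. It had 223, 174 and 272 normalized reads in females at 3 days, 118 and 158 at 7 days, and 192 and 129 at 14 days. In males 5-HT2A had 311, 281 and 243 at 3 days, 202, 224 and 178 at 7 days, and 139, 195 and 184 at 14 days. Both 7-day female values were below all values of the 3-day females, and the 3-day males were above all older males. The LFC of 5-HT2A was -0.69 ± 0.25 for 14 over 3 days in males (limma adjusted p = 0.11) and -0.68 ± 0.28 for 7 over 3 days in females (limma adjusted p = 0.19). DESeq2 called the male difference (adjusted p = 0.059), and edgeR did not (adjusted p = 0.11). Averaged over the ages, the LFC of females over males was -0.34 ± 0.16 (limma adjusted p = 0.27). Without both libraries of high background, which leaves 1 library of 7-day females, it was larger, at -0.45.

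5-HT2B was the receptor with a called sex difference, lower in females at 3 days. It had 167, 229.8 and 274 normalized reads in 3-day females against 408, 468 and 363 in 3-day males, so that every female library was below every male one. The LFC was -0.90 ± 0.26 (limma adjusted p = 0.048), which is 0.53 times the male level, with a 95% interval of -1.45 to -0.36. DESeq2 and edgeR on the recovered reads called it as well (adjusted p = 0.029 and 0.048), and without both libraries of high background, neither of which is a 3-day library, the LFC was -0.90 ± 0.20 (limma adjusted p = 0.013). The call was lost without replicate 1 of the 3-day females (LFC -0.71, limma adjusted p = 0.24), without replicate 1 of the 3-day males (-0.91, limma adjusted p = 0.16) and without replicate 2 of the 3-day males (-0.81, limma adjusted p = 0.14).

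No sex difference in 5-HT2B was called at the older ages taken singly. It had 281 and 407 normalized reads in 7-day females against 379, 344 and 433 in 7-day males, and 352 and 318 in 14-day females against 776, 482 and 386 in 14-day males. The 7-day ranges overlapped and the 14-day ranges did not. The LFC of females over males was -0.18 ± 0.29 at 7 days (limma adjusted p = 0.88) and -0.65 ± 0.29 at 14 days (limma adjusted p = 0.7). Without replicate 1 of the 14-day males, the library with 776 normalized reads, the 14-day value was -0.36 (limma adjusted p = 1). Averaged over the ages it was -0.58 ± 0.16 (limma adjusted p = 0.097) and called, a call that 12 of 16 fits without 1 library lost. The change from 3 to 7 days differed between the sexes by an LFC of 0.72 ± 0.39, which was not called.

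Within females, 5-HT2B had higher values at the older ages. Both 7-day and both 14-day values were above the highest 3-day value of 274 normalized reads. The LFC was 0.62 ± 0.29 for 7 over 3 days (limma adjusted p = 0.24) and 0.61 ± 0.29 for 14 over 3 days (limma adjusted p = 0.17), and neither was called. Without both libraries of high background, which leaves 1 library of 7-day females whose spread is taken to be that of the other groups, the first was 0.35 ± 0.29 (limma adjusted p = 0.7). The second comparison, 14 over 3 days, holds neither of these libraries, so its LFC of 0.61 could not change in that fit. The ratio of 5-HT2B to 5-HT2A within a library, chosen after its values were seen and not tested, was 0.75 to 1.32 in 3-day females and 1.83 to 2.58 in older females.

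5-HT2B and DopEcR were the receptors whose levels moved most closely with the scarce transcripts of a library, in opposite directions. The median of the gustatory receptor genes was 0, 1.75 and 2.43 normalized reads in the 3-day females and 11.6, 7.39 and 7.66 in the 3-day males, so it differed in the same direction as 5-HT2B, and its part in the sex difference was not tested. Over the 16 libraries, which share their groups, the correlation of this median with 5-HT2B on the log2 scale was r = 0.870 (rho = 0.691), and r = 0.686 without the 2 libraries farthest from the middle. For DopEcR it was r = -0.735 (rho = -0.844), and r = -0.674 without those 2 libraries. The other 8 receptors ranged from -0.388 to 0.376. These correlations are a description of the libraries and were not tested.

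**Figure D2:**
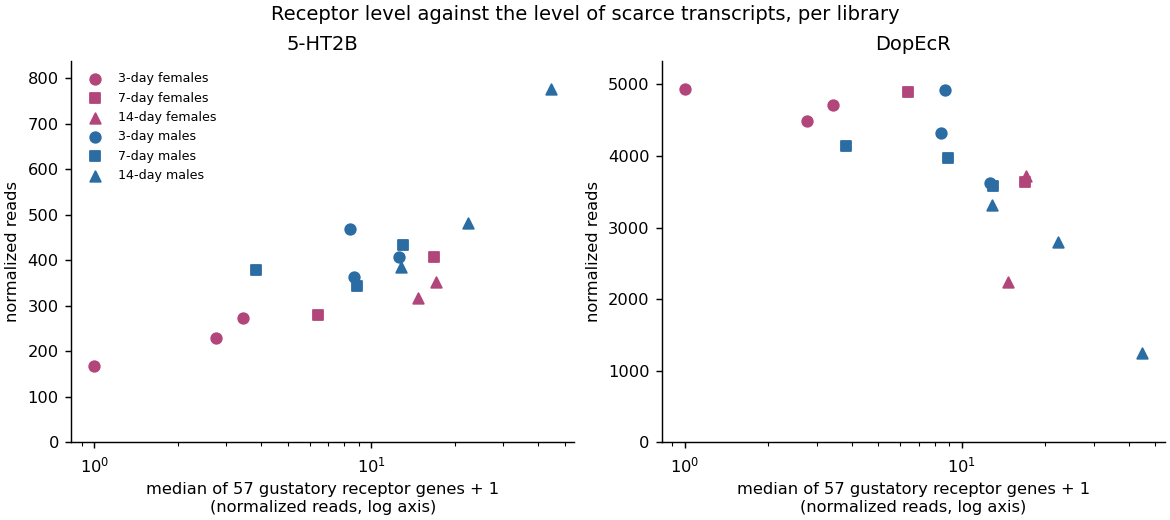
Normalized reads of 5-HT2B (left) and DopEcR (right) against the median of 57 gustatory receptor genes plus 1 (log axis), with a point per library, colour for sex and shape for age. 5-HT2B is highest, at 776, and DopEcR lowest, at 1254, in replicate 1 of the 14-day males, where the median is 43.6.

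5-HT7, a receptor that raises cAMP, was even across the groups apart from a wide spread in 14-day males. It had 349.9, 381 and 316 normalized reads in females at 3 days, 379.7 and 384 at 7 days, and 390.0 and 296 at 14 days. In males it had 419, 421 and 305 at 3 days, 319.9, 305 and 392 at 7 days, and 669, 382 and 235 at 14 days. Its highest and lowest values of all libraries were both in 14-day males. The LFC between the sexes stayed between -0.20 ± 0.32 and 0.18 ± 0.32, with 95% intervals reaching from -0.88 to 0.86.

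Oamb, the octopamine receptor that raises calcium and that is needed for ovulation in the oviduct and for reward learning in the brain, was highest on average in 3-day males. It had 1095, 988 and 678 normalized reads there against 481, 589 and 951 in 3-day females, and the ranges overlapped. The older females had 629 and 793 at 7 days and 725 and 367 at 14 days. The older males had 678, 653 and 612 at 7 days and 655, 749.5 and 638 at 14 days. The LFC of females over males at 3 days was -0.48 ± 0.28 (limma adjusted p = 0.31), and without replicate 3 of the 3-day females it was -0.76 ± 0.28 (limma adjusted p = 0.083).

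**Figure D3:**
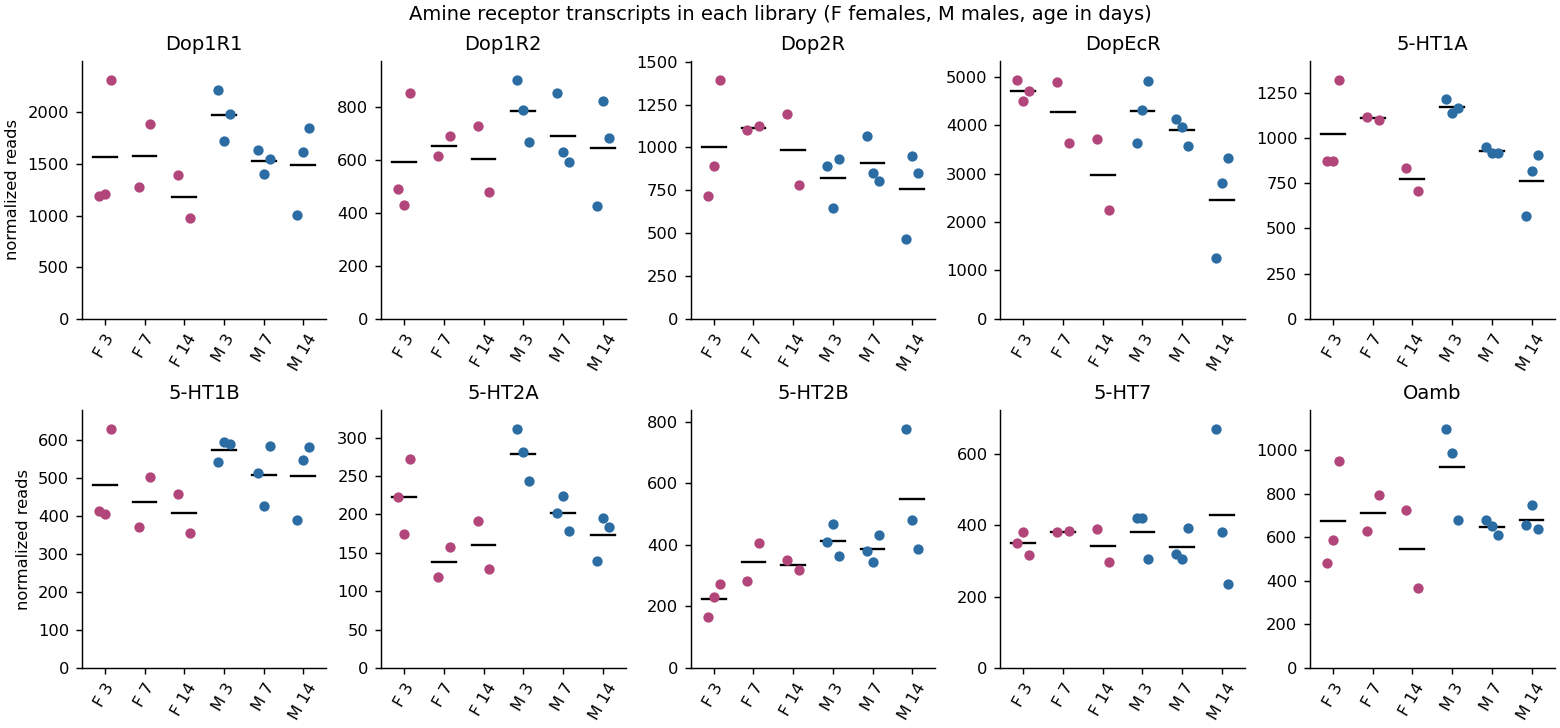
Normalized reads of the 10 receptors in each library, by sex (F females, M males) and age in days, with group means as lines and each vertical axis starting at 0. At 3 days 5-HT2B lies at 167 to 274 in females and at 363 to 468 in males, and DopEcR is lowest in the 14-day groups.

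Counted over the receptors, sex differences were few. At 3 days 1 of 10 was called, lower in females, where 11.4% of all tested genes were called, and 1 had an unadjusted p under 0.05, against 23.3% of all genes. The LFC was below 0 for 8 of 10 receptors, with a median of -0.31 beside -0.12 over all genes. At 7 days limma called 0 of 10 (0.0562% of all genes), 0 had an unadjusted p under 0.05 (7.54% of all genes), and DESeq2 and edgeR called 0. At 14 days limma called 0 of 10 (0.329% of all genes), 1 had an unadjusted p under 0.05 (7.13% of all genes), and DESeq2 and edgeR called 0. Averaged over the ages 1 of 10 was called (2.40% of all genes), and 2 had an unadjusted p under 0.05 (18.0% of all genes). The share of receptors called at 3 days was close to that of all genes.

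**Figure D4:**
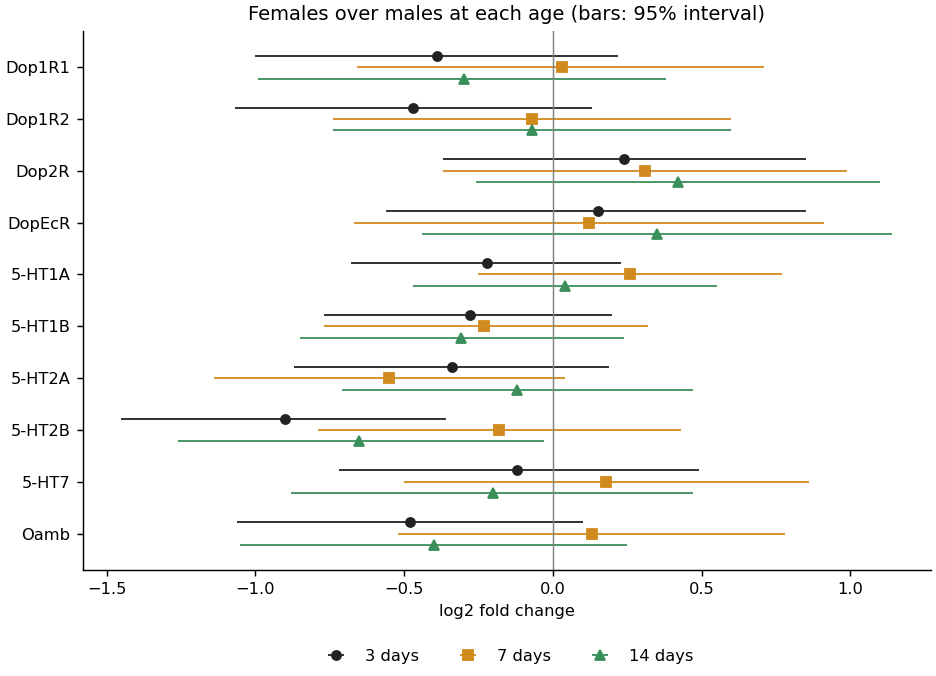
LFC of females over males for each receptor at 3, 7 and 14 days, with 95% intervals from limma as bars. The interval of 5-HT2B excludes 0 at 3 days (-1.45 to -0.36) and at 14 days (-1.26 to -0.03), where the LFC of -0.65 became -0.36 without replicate 1 of the 14-day males, and all other intervals include 0.

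In females, no receptor was called with age. From 3 to 7 days limma called 0 of 10 (7.67% of all genes), and 2 had an unadjusted p under 0.05 (19.7% of all genes). From 7 to 14 days it called 0 (0.00% of all genes), and 0 had an unadjusted p under 0.05 (2.21% of all genes). From 3 to 14 days it called 0 (21.7% of all genes), and 0 had an unadjusted p under 0.05 (30.6% of all genes). DESeq2 and edgeR called 0 in each of these comparisons. Without both libraries of high background, 2 were called from 3 to 14 days, 5-HT2B higher and DopEcR lower, where 33.4% of all genes were called. Neither of these libraries is of 3- or 14-day females, so the LFCs of that comparison could not change, and only the spread and the adjustment differed. The median LFC of the receptors from 3 to 14 days was -0.28 beside 0.15 over all genes, and -0.07 beside 0.36 after rescaling on the more abundant genes.

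In males the 1 receptor called with age was 5-HT1A. From 3 to 7 days limma called 0 of 10 (0.193% of all genes), and 0 had an unadjusted p under 0.05 (3.00% of all genes). From 7 to 14 days it called 0 (21.2% of all genes), and 1 had an unadjusted p under 0.05 (34.8% of all genes). DESeq2 and edgeR called 0 in both. From 3 to 14 days 1 was called, lower (11.5% of all genes), and 3 had an unadjusted p under 0.05 (30.2% of all genes). DESeq2 called 3 there and edgeR 0. The percentages are limma's, so DESeq2's count of 3 has no share of all genes to be set against. The median LFC of the receptors from 3 to 14 days was -0.37 beside 0.24 over all genes, with 8 of 10 below 0. After rescaling it was -0.13 beside 0.49, with 6 of 10 below 0. Without both libraries of high background limma called 0 in that comparison (0.172% of all genes). Beside the receptors' -0.37, neuron and glia markers each had a median LFC of -0.90 from 3 to 14 days in males. Muscle markers had -1.33, photoreceptor markers -1.29, mushroom body markers -0.52 and fat body markers 0.36. The part of cell types in the receptors' values was not tested.

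No receptor's change with age was shown to differ between the sexes. For the change from 3 to 7 days limma called 0 of 10 (0.546% of all genes), with 0 at an unadjusted p under 0.05 (15.2% of all genes). For the change from 7 to 14 days it called 0 (0.00% of all genes), with 0 at an unadjusted p under 0.05 (7.67% of all genes). DESeq2 and edgeR called 0 in both. The SEs of these differences, 0.33 to 0.53, leave room for differences of more than 1 on the log2 scale.

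**Figure D5:**
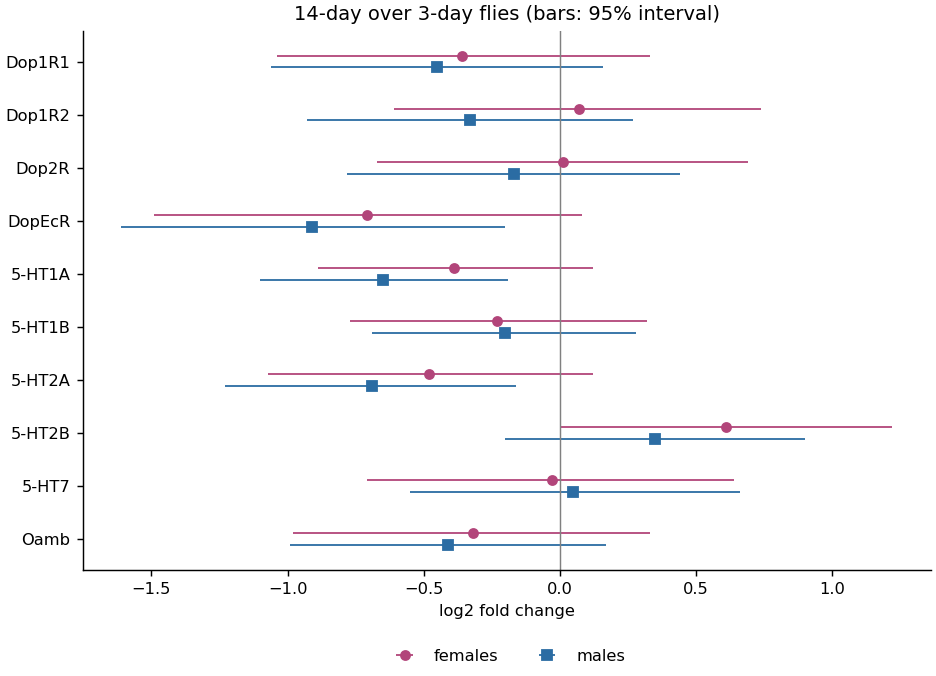
LFC of 14- over 3-day flies for each receptor in females and males, with 95% intervals from limma as bars. In males the intervals of DopEcR (-1.61 to -0.20), 5-HT1A (-1.10 to -0.19) and 5-HT2A (-1.23 to -0.16) exclude 0, and 5-HT1A was called after adjustment.

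Of the other 7 octopamine and tyramine receptors, TyrRII was the 1 that limma called in the fit of all libraries. TyrRII, a tyramine receptor gene, is scarce, with 17.9 to 247 normalized reads per library. It was lower in 3-day females than in 3-day males (LFC -1.70 ± 0.44, limma adjusted p = 0.032), and higher in 7- and 14- than in 3-day females (1.66 ± 0.49 and 1.44 ± 0.49, limma adjusted p = 0.07 and 0.06). It was also higher in 14- than in 7-day males (1.68 ± 0.44, limma adjusted p = 0.076). Without both libraries of high background the calls for 7- over 3-day females (limma adjusted p = 0.46) and 14- over 7-day males (limma adjusted p = 0.37) were lost, and 3 of the 7 were called in 14- over 3-day females, where 33.4% of all genes were. DESeq2 called 3 of 7 in 14- over 3-day females and 4 of 7 in 14- over 3-day males, and edgeR 1 and 0. These counts have no share of all genes from the same tool to be set against. 5-HT2B had LFCs of the same sign as TyrRII in the 4 comparisons in which limma called TyrRII. The comparisons share groups, so their signs are not independent of each other.

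Signal transduction below the receptors was covered by 19 genes, such as G protein subunits, adenylyl cyclases and protein kinase A. Limma called 0 of 19 between 3-day females and males, where 11.4% of all genes were called. Of the 19, 5 were higher and 0 lower in females at an unadjusted p under 0.05, against 23.3% of all genes in either direction. DESeq2 called 3 and edgeR 0. In the fit without both libraries of high background limma called 8, with 20.2% of all genes called. From 3 to 14 days in females 2 of 19 fell, where 21.7% of all genes were called, Galphao, the alpha subunit of Go (-1.42 ± 0.49, limma adjusted p = 0.062), and Galphaq, which passes signals to phospholipase C (-1.05 ± 0.40, limma adjusted p = 0.087). With both libraries of high background left out, 11 of 19 were called there, and 33.4% of all genes. The list's median LFC was -0.80 beside 0.15 over all genes and -0.28 for the receptors. From 7 to 14 days in males 2 of 19 fell, where 21.2% of all genes were called, Galphas, which activates adenylyl cyclase (-0.90 ± 0.32, limma adjusted p = 0.085), and Ggamma1 (-1.04 ± 0.38, limma adjusted p = 0.088). In the fit without these libraries the male values were -0.45 for Galphas and -0.57 for Ggamma1 and were not called (limma adjusted p = 0.38 and 0.37). Markers of cell types moved over the same ages, not all in the same direction. From 3 to 14 days in females, neuron markers had a median LFC of -0.96 with 2 of 8 called lower, and without both libraries of high background 7 of 8 were called. Glia markers had a median of -1.91 with 5 of 8 called lower, and photoreceptor markers, from cells that use Galphaq in phototransduction, a median of -2.34 with 12 of 12 called lower. Fat body markers rose there, with a median of 2.07 and 5 of 7 called higher. From 7 to 14 days in males neuron markers had a median of -0.75 with 1 of 8 called lower. Glia markers had a median of -0.49 with 1 of 8 called lower, and muscle markers -0.42 with 3 of 8. Photoreceptor markers went the other way, with a median of 0.74 and 2 of 12 called higher, and fat body markers had a median of 0.83. Between 3-day females and males the median LFC was 0.51 for neuron, 0.80 for glia and 0.60 for photoreceptor markers. It was 0.28 for mushroom body, 6.48 for fat body and 0.02 for muscle markers. The part of these cell types in the changes with age and in the sex difference was not tested.

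Of 10 genes for making and transporting the amines, 2 were called higher in 3-day females than in males, where 11.4% of all genes were called. Hn, whose enzyme hydroxylates phenylalanine and in the fly also tryptophan, had an LFC of 2.23 ± 0.49 (limma adjusted p = 0.017) and also differed over the mean of the ages (1.86 ± 0.31, limma adjusted p = 0.0028). Hn is also made in fat body, whose 7 markers had a median LFC of 6.48 between 3-day females and males, with 6 of 7 called higher, and their part in this difference was not tested. ple, the tyrosine hydroxylase that starts dopamine synthesis, had an LFC of 0.90 ± 0.30 (limma adjusted p = 0.086), and it fell in females from 3 to 14 days (-1.21 ± 0.34, limma adjusted p = 0.027). Tdc2, the neuronal enzyme that starts octopamine synthesis, fell from 7 to 14 days in males (-0.71 ± 0.26, limma adjusted p = 0.087), a call lost without both libraries of high background (-0.60, limma adjusted p = 0.37). The list's median LFC was -0.07 in 3-day females over males, beside -0.12 over all genes.

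Of 8 receptors coupled to G proteins for acetylcholine, GABA and glutamate, 7 passed the filter, and mAChR-C did not. GABA-B-R3 was lower in 3-day females than in males (-0.71 ± 0.25, limma adjusted p = 0.098). GABA-B-R1 was lower in 14- than in 3-day males (-1.06 ± 0.36, limma adjusted p = 0.094). In edgeR neither difference was called. The GABA-B-R1 call was lost without both libraries of high background (-0.56, limma adjusted p = 0.41). The median LFC of this list was -0.47 in 3-day females over males and -0.52 in 14- over 3-day males, beside -0.31 and -0.37 for the amine receptors. Limma called no other gene of the list in the fit of all libraries. DESeq2 called 2 of 7 in 14- over 3-day males, a count with no share of all genes beside it. In the fit without both libraries of high background, which leaves 1 library of 7-day females, limma called some further genes. These calls were in 14- over 3-day females and in the mean sex difference.

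Of 45 pairs of receptors, 34 had a correlation above 0 on the log2 scale over 16 libraries. The share of such pairs among other genes was not computed, so this count is not a trait particular to the receptors. The highest pairs were Dop1R1 and 5-HT1B (r = 0.883), Dop1R1 and Dop1R2 (0.831), Dop1R1 and 5-HT1A (0.815) and DopEcR and 5-HT1A (0.795). The lowest was DopEcR and 5-HT2B (-0.696). These are descriptions over libraries that share sex, age and depth.

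For each receptor the gene with the most similar pattern was sought among the 8410 genes that averaged 50 or more normalized reads, by Pearson's r over the 16 libraries. It was Octbeta3R, a further octopamine receptor, for Dop1R1 (r = 0.922), na, a sodium leak channel, for Dop1R2 (0.926), and Spt6, a factor of transcription elongation, for Dop2R (0.935). For DopEcR it was CG31140 (0.982), for 5-HT1A CG42260 (0.951), for 5-HT1B beat-IV (0.898) and for 5-HT2A CG6282 (0.886). For 5-HT2B it was pb, the Hox gene proboscipedia (0.955), for 5-HT7 CG5390 (0.842), and for Oamb Orp8 (0.917). In each case some gene outside the family was closer than the closest other member, from 2 genes for 5-HT1B to 1838 genes for 5-HT2B. Each r is the highest of 8410 and was not tested. By ranks these pairs were less close in part, with a rho of 0.647 for 5-HT7, 0.794 for Oamb and 0.974 for DopEcR.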

How the data were processed

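Per the labels and methods, the authors used Trimmomatic (0.39) to trim single-end reads and STAR (2.7.3a) to map them, and the deposited signal values are reads per gene normalized by DESeq2. The counting tool and strand setting are not given in the sources used here. Every value was a whole number of reads times a factor of its library (100% of values, tolerance 1e-06), and these reads were recovered. The members and gene lists were chosen with earlier results of these data known.

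Of 18 samples, 16 had values. The 6 groups entered 1 model in limma 3.58.1 (R 4.3.3) with a variance trend, on log2(value + 1). The 12448 genes averaging 5 or more were tested, with Benjamini-Hochberg adjustment and a threshold of 0.1, in 12 comparisons. P-values measure the spread between pools of brains. Gene symbols came from NCBI's release 6 gene table, and positions and lengths from the BDGP6.54 annotation.

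As alternatives, recovered reads were fitted in edgeR (4.0.16) and in DESeq2 (1.42.0). Pseudocounts were set to 5 or 0.5, the filter was dropped or raised to 20, libraries were rescaled on genes averaging 100 or more, replicate number was entered as a block, coding length replaced exon length, and each library was left out. Leaving out both libraries of high background was chosen after seeing the data. All 10 receptors were named, other list genes when called (up to 4 per list and comparison), and likeness genes by highest r. Python (3.11.15) with numpy (2.4.6), scipy (1.17.1), pandas (2.3.3) and matplotlib (3.10.9) served for tables and plots.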

Additional observations from a re-analysis of the deposited data

How the results depend on the processing

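All alternatives were run, and none of the receptor log2(fold-changes) with an unadjusted p under 0.05 changed sign. The number of receptors called between 3-day females and males (1) ranged from 0 to 3 when 1 library was left out, with Dop1R2 and Oamb added to 5-HT2B in the fit that dropped replicate 3 of the 3-day females. For the mean sex difference (1) it was 0 with a pseudocount of 5, with no filter, after rescaling and with the replicate block. It was 0 to 1 without 1 library. It was larger without both libraries of high background (5-HT1B, 5-HT2A and 5-HT2B), a count with no share of all genes beside it. From 3 to 14 days in females (0) it was 0 to 2 without 1 library, with 2 where replicate 1 of the 14-day males was dropped, and 2 with both libraries of high background left out. From 7 to 14 days in males (0) it was 0 to 3, with 3 (5-HT2B, 5-HT7 and DopEcR) in the fit that dropped replicate 3 of the 14-day males. From 3 to 14 days in males (1) it was 3 with DESeq2 and with a pseudocount of 5, 0 with edgeR, a pseudocount of 0.5, rescaling and the replicate block, 0 to 3 without 1 library, and 0 without both libraries. The cause of these differences was not tested. Rescaling moved the median of all genes from 0.24 to 0.49 for 14- over 3-day males, where the receptors' median went from -0.37 to -0.13, and from 0.20 to 0.46 for 14- over 7-day males, where the receptors' median went from -0.11 to 0.14.

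Replicate numbers did not pair the samples: the deviations of 35 pairs of libraries with the same number had a median correlation of -0.046 (-0.617 to 0.434), against 0.008 for 71 other pairs. With 2 or 3 libraries per group, the SE of a receptor's sex difference at an age was 0.22 to 0.37, which limits the calls. The block changed no other count.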
